A study of Homo sapiens with 24 samples.

Results

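The genes studied here encode potassium channels and their subunits, together with KCNE3, an auxiliary subunit that is prominent in colon epithelium. They were all array features, control spots apart, whose gene name starts with KCN followed by letters and a digit. The rule found 130 probes with 98 names among the 50599 probes with 36337 names on the array. They were measured in HT29 cells, a line of human colon adenocarcinoma, with 4 arrays in each of 6 groups and 24 arrays in all. The groups were cells left untreated (NT), cells given C3/C2 (30 mM propionate with 15 mM acetate, short-chain fatty acids), cells given SN (the supernatant of a Propionibacterium freudenreichii culture grown in DMEM, diluted 1/2), cells given TRAIL (100 ng/ml, together with anti-Flag antibody at 2 μg/ml), and cells given TRAIL+C3/C2 or TRAIL+SN at the same doses. TRAIL is a ligand of death receptors, and every treatment lasted 6 h. The cells are 1 established line from 1 tumor. The study describes 2 independent experiments, each in duplicate, without saying which arrays share an experiment. The 4 arrays of a group are thus not 4 independent experiments. P-values measure the spread between these arrays, part of which may be technical.

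Potassium channels let potassium leave or enter a cell along its electrochemical gradient and so set the membrane potential. In colon epithelium, basolateral channels recycle the potassium that the Na/K-ATPase and the Na-K-2Cl cotransporter carry in, and thereby keep up the driving force for chloride secretion through CFTR. KCNE3 is a small membrane protein that binds the pore subunit KCNQ1 and holds that channel open, while the calcium-activated channel KCNN4 serves secretion evoked by calcium. Voltage-gated, inward rectifier and two-pore channels form other branches of the family. Modifier subunits such as KCNF1 do not form channels alone, and auxiliary subunits (KCNE, KCNAB, KCNIP and KCNMB) alter the pores they join.

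A probe was kept where some group had it marked by the scanner software as well above background on each of its 4 arrays. Of the 130 probes, 43 passed, which gave 37 genes after the probe with the highest mean level was taken for each. Of those genes, 29 were well above background on all 24 arrays and 36 on all 4 NT arrays. Among the other probes, 56 were well above background on no array and 31 on some arrays. By class, the filter kept 10 of 30 voltage-gated names, 3 of 10 modifiers, 8 of 16 auxiliary subunits, 3 of 8 calcium- or sodium-activated channels, 6 of 16 inward rectifiers and 6 of 15 two-pore channels. It kept 1 of 3 names that are not channels, which was KCNQ1OT1, an RNA transcribed from the opposite strand of KCNQ1. KCNE4 and all 4 probes of KCNMA1, the large-conductance calcium-activated channel, were well above background on no array, and KCNE1 and KCNE2 on 1 array each.

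Levels below are log2 intensities minus the log2 of the same array's 75th percentile. A gene was called higher or lower where a difference reached a fold of 2 (1 on the log2 scale) with an adjusted p under 0.05, from limma with Benjamini-Hochberg adjustment over all 20700 genes tested. The 4 slides bear on every comparison. The first replicates of NT and C3/C2 were on slide 1 and the remaining arrays of these groups on slide 2, while SN and TRAIL filled slide 3 and the co-treatments slide 4. C3/C2 against NT, SN against TRAIL, and TRAIL+SN against TRAIL+C3/C2 could therefore be compared within slides. There the compared groups differed in the first number of their array position, which cannot be told apart from treatment. In every other comparison, slide and treatment cannot be told apart. The 75th percentile of intensity ran from 453 to 1009 and the share of probes well above background from 49.8% to 57.8% over the 24 arrays, with the TRAIL arrays at 49.8% to 53.5% and the NT arrays at 53.4% to 55.4%.

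KCNE3 fell strongly with C3/C2 and with SN, alone or with TRAIL, and the supernatant left less of it than the fatty acids did. Its probe lies at chr11:74166486-74166545 on the minus strand of hg19, and it was well above background on all 24 arrays. In NT the KCNE3 level was 2.98, 3.00, 3.00 and 2.93 in replicates 1 to 4. With C3/C2 it was -0.52, -0.41, -0.63 and -0.59. With SN it was -1.91, -1.91, -1.38 and -1.82. Every treated array of these groups thus lay far below every NT array, and the SN arrays lay below the C3/C2 arrays. The level with TRAIL alone was 2.68, 2.63, 2.60 and 2.56, just under NT without overlap. With TRAIL+C3/C2 it was -0.73, -0.75, -0.97 and -0.98. With TRAIL+SN it was -2.43, -2.35, -1.82 and -2.20, the lowest of the 6 groups.

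The log2 difference of KCNE3 from NT was -3.52 ± 0.12 (SE, n = 4 per group) with C3/C2, a fall of 11.4-fold (adjusted p = 4.12e-16). With SN the difference was -4.74 ± 0.12, or 26.6-fold (adjusted p = 3.44e-18). In the co-treatments it was -3.84, or 14.3-fold, beside C3/C2 and -5.18, or 36.3-fold, beside SN. At the threshold of a fold of 2, 6.17% of all genes were called lower with C3/C2, 9.74% with SN, and 7.93% and 10.1% in the co-treatments. TRAIL alone gave -0.36 ± 0.12 (adjusted p = 0.0206), which did not reach a fold of 2. Within slides, the C3/C2 difference was -3.52 with slide as a block and -3.52 on slide 2 alone, and SN differed from TRAIL on their shared slide by -4.37 ± 0.12 (adjusted p = 1.26e-17). In a culture of 1 cell line, fewer cells that make KCNE3 and less KCNE3 RNA per cell cannot be told apart.

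KCNE3 was the 1 gene of the 37 called between the co-treatments, which share slide 4. TRAIL+SN was 2.54-fold below TRAIL+C3/C2 (log2 difference -1.34 ± 0.12, adjusted p = 2.11e-08), where 2.56% of all genes were called lower and 0.976% higher. Without TRAIL, SN was 2.33-fold below C3/C2 (-1.22 ± 0.12, adjusted p = 4.85e-08), where 4.42% of all genes were called lower and 1.28% higher. That second difference was -0.95 when arrays were scaled to spike-in probes and -0.99 after another background correction, short of a fold of 2 in both. The fall of KCNE3 was not shown to depend on TRAIL: the interaction of TRAIL with C3/C2 was 0.04 (95% interval -0.30 to 0.38) and that with SN was -0.09 (-0.43 to 0.26).

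**Figure D1:**
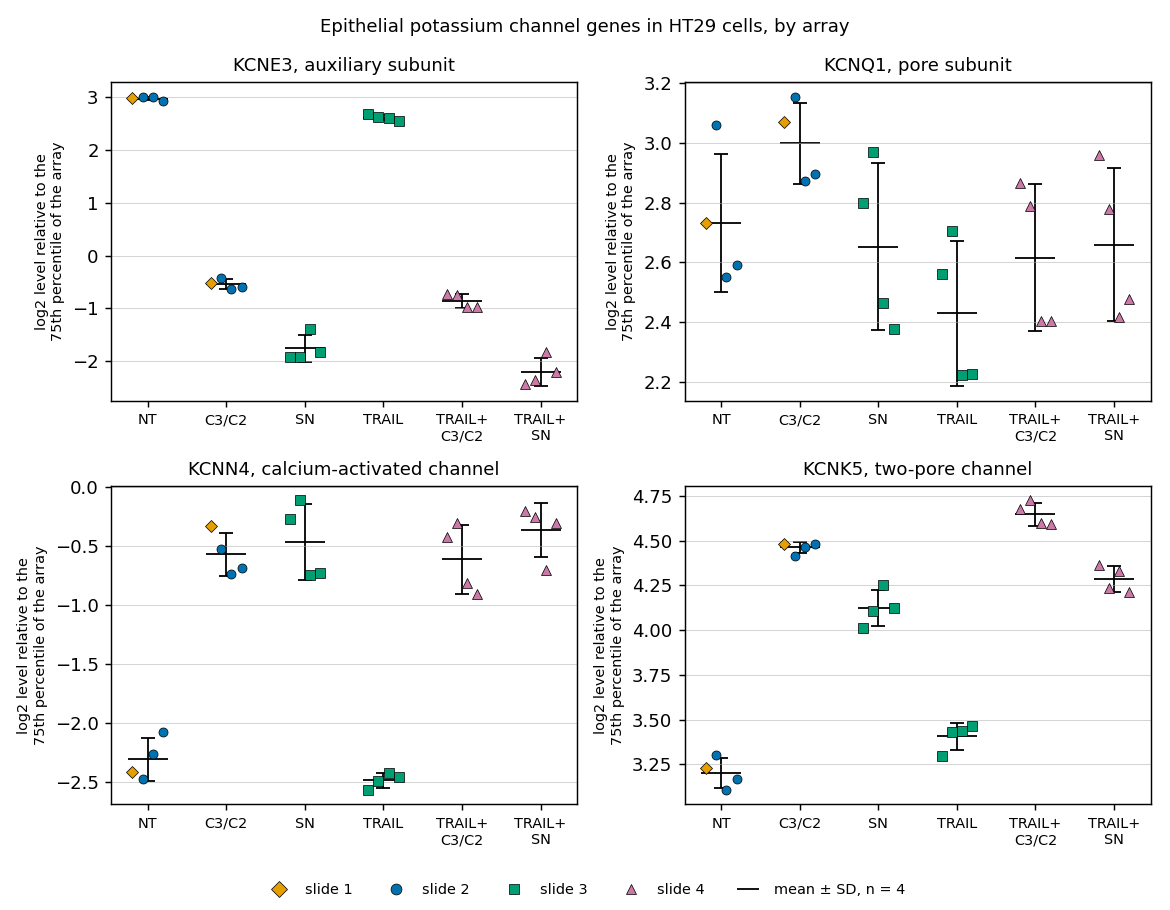
Log2 level of KCNE3, KCNQ1, KCNN4 and KCNK5 on each of the 24 arrays (y axis, relative to that array's 75th percentile, a different range in each panel) by group (x axis), with the slide as colour and shape and bars for mean ± SD of 4 arrays. KCNE3 lies between 2.93 and 3.00 in NT and between -2.43 and -1.82 with TRAIL+SN, KCNN4 and KCNK5 lie above all NT arrays in the 4 groups given C3/C2 or SN, and the KCNQ1 groups overlap NT.

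KCNQ1, the pore that KCNE3 joins, did not follow it. The KCNQ1 level was 2.73, 3.06, 2.55 and 2.59 in NT, 3.07, 3.16, 2.87 and 2.90 with C3/C2, and 2.80, 2.97, 2.46 and 2.38 with SN. The arrays of all 5 treated groups overlapped those of NT. Its log2 difference from NT was 0.27 (95% interval -0.07 to 0.60) with C3/C2, -0.08 (-0.42 to 0.25) with SN, -0.30 (-0.64 to 0.03) with TRAIL, -0.12 (-0.45 to 0.22) with TRAIL+C3/C2 and -0.07 (-0.41 to 0.26) with TRAIL+SN. Every interval excluded a fold of 2 in either direction.

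KCNN4, the intermediate-conductance channel opened by calcium through calmodulin, rose where KCNE3 fell. The KCNN4 level was -2.42, -2.48, -2.26 and -2.08 in NT, and -0.34, -0.53, -0.74 and -0.69 with C3/C2. With SN it was -0.27, -0.12, -0.75 and -0.73. These groups did not overlap NT, whereas TRAIL alone, at -2.57 to -2.43, did. The rise was 3.33-fold with C3/C2 (log2 difference 1.74 ± 0.15, adjusted p = 2.81e-09) and 3.59-fold with SN. In the co-treatments it was 3.24-fold with C3/C2 and 3.84-fold with SN. On slide 2 alone the C3/C2 difference was 1.62. KCNN4 did not differ detectably between SN and C3/C2 (0.11, 95% interval -0.22 to 0.43).

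KCNK5, a two-pore channel that conducts at alkaline pH outside the cell, rose less. Its level was 3.11 to 3.30 in NT, 4.42 to 4.48 with C3/C2 and 4.02 to 4.26 with SN, without overlap with NT. The log2 difference was 1.26 ± 0.06 with C3/C2 and 1.45 with TRAIL+C3/C2. With SN it was 0.92 ± 0.06, a fold of 1.90 that was not called, and with TRAIL+SN it was 1.08. The calls of KCNK5 with C3/C2 and TRAIL+SN were lost when arrays were scaled to their median (0.96 and 0.89). Those with TRAIL+C3/C2 and TRAIL+SN were lost when arrays were scaled to spike-in probes (0.76 and 0.58).

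The upstream sequences of KCNE3, which fell, and of KCNN4 and KCNK7, which rose, are shown because the 3 genes moved apart under the same treatments. They are the 250 bases before the RefSeq start of each gene on GRCh38.p14, read 5′ to 3′ on the strand of the gene, which is the minus strand in all 3. Capitals mark the GC box GGGCGG or its complement CCGCCC and the E-box CACGTG. The positions are chr11:74467550-74467799 for KCNE3, chr19:43780974-43781223 for KCNN4 and chr11:65595801-65596050 for KCNK7.
KCNE3: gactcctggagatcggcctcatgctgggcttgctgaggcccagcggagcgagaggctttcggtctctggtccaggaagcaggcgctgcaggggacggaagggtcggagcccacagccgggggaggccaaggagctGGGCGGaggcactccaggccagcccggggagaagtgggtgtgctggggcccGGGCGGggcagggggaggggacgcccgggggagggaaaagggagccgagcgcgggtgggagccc
KCNN4: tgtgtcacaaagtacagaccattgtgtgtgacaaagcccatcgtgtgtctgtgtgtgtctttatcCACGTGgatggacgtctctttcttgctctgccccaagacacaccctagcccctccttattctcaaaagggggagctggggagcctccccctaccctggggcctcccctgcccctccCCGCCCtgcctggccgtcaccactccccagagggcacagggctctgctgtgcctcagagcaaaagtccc
KCNK7: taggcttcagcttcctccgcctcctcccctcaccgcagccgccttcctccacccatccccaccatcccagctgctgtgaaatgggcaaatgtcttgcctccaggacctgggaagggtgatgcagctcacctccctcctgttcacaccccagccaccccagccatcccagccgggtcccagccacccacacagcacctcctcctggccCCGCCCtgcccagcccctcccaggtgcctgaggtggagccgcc

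KCNE3 held 2 GC boxes, KCNN4 a GC box and an E-box, and KCNK7 a GC box. The GC box was in 16 of the 26 upstream sequences found for the 37 genes (61.5%), against 42.6% of 35116 promoters of the same length. The median share of G and C letters was 66.4% in the 26 sequences and 58% over all promoters. The part of this in the GC box counts was not tested. GCGTG, the core letters bound by the aryl hydrocarbon receptor with ARNT, was in 9 of 26 against 32.2% of all promoters, and KCNE3 held none. CACGTG was in 1 of 26 (6.34% of all promoters), TATAAA in 3 of 26 (10.7%) and the AP-1 letters TGACTCA in 0 of 26 (4.20%). All were searched on both strands, and GCGTG can overlap the letters of another motif. Of the 7 sequences found for genes called higher with both C3/C2 and SN, 5 held the GC box and 3 held GCGTG. KCNJ10 is among the 7 and held both, although it was well above background in neither SN nor NT. KCNQ1, KCNMB4 and KCNQ1OT1 are among the genes with no upstream sequence in the table used.

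Over the whole set, most calls were rises, and they came with C3/C2 or SN rather than with TRAIL. With C3/C2, 12 of the 37 genes were called higher, against 13.4% of all genes, and 1 lower, against 6.17%. With SN, 11 were called higher, against 14.2% of all genes, and 2 lower, against 9.74%. With TRAIL+C3/C2, 13 were called higher (16.3% of all genes) and 1 lower (7.93%). With TRAIL+SN, 14 were called higher (16.1% of all genes) and 2 lower (10.1%). TRAIL alone called 0 higher (0 also at an unadjusted p under 0.05 and a fold of 2, with 0.749% of all genes called) and 1 lower (2.18% of all genes). KCNJ10 is among the rises with SN and with both co-treatments although it was well above background neither there nor in NT, so 10, 12 and 13 rises were measured on at least 1 side. The median log2 difference of the 37 genes was 0.56 with C3/C2 and also 0.56 with SN. It was -0.04 with TRAIL, and 0.65 and 0.53 in the co-treatments with C3/C2 and SN, against 0.08, -0.02, 0.03, 0.10 and 0.04 over all genes. Since a gene could pass the filter through the group in which it was high, the 29 genes well above background on all 24 arrays are given too: 11, 9, 0, 11 and 12 of them were called higher in the same order, and 1, 2, 1, 1 and 2 lower. Of the 17041 genes with that property, fitted by themselves, 10.2%, 11.8%, 0.493%, 13% and 13.6% were called higher and 5.57%, 8.32%, 1.33%, 6.69% and 8.67% lower.

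The split of calls depended on the scaling of the arrays. With TRAIL+C3/C2 it was 13 higher and 1 lower in the main setting, 11 and 4 after scaling to the array median, 12 and 4 after quantile normalization, and 8 and 6 after scaling to spike-in probes. All genes shifted too: from 16.3% higher and 7.93% lower to 11.1% and 15.1%, 13.2% and 11%, and 7.79% and 27.3% in the same order. With TRAIL+SN the spike-in scaling gave 9 higher and 4 lower in place of 14 and 2, where 9.2% of all genes were called higher and 23.1% lower. Within slides, C3/C2 against NT gave 12 higher and 1 lower with slide as a block and on slide 2 alone, and SN against TRAIL gave 11 higher (13.1% of all genes) and 1 lower (8% of all genes). KCNJ10 is among those 11 although it was well above background in neither SN nor TRAIL, so 10 rises were measured on at least 1 side. KCNF1 and KCNV2 are among these 10 and were well above background on no TRAIL array.

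**Figure D2:**
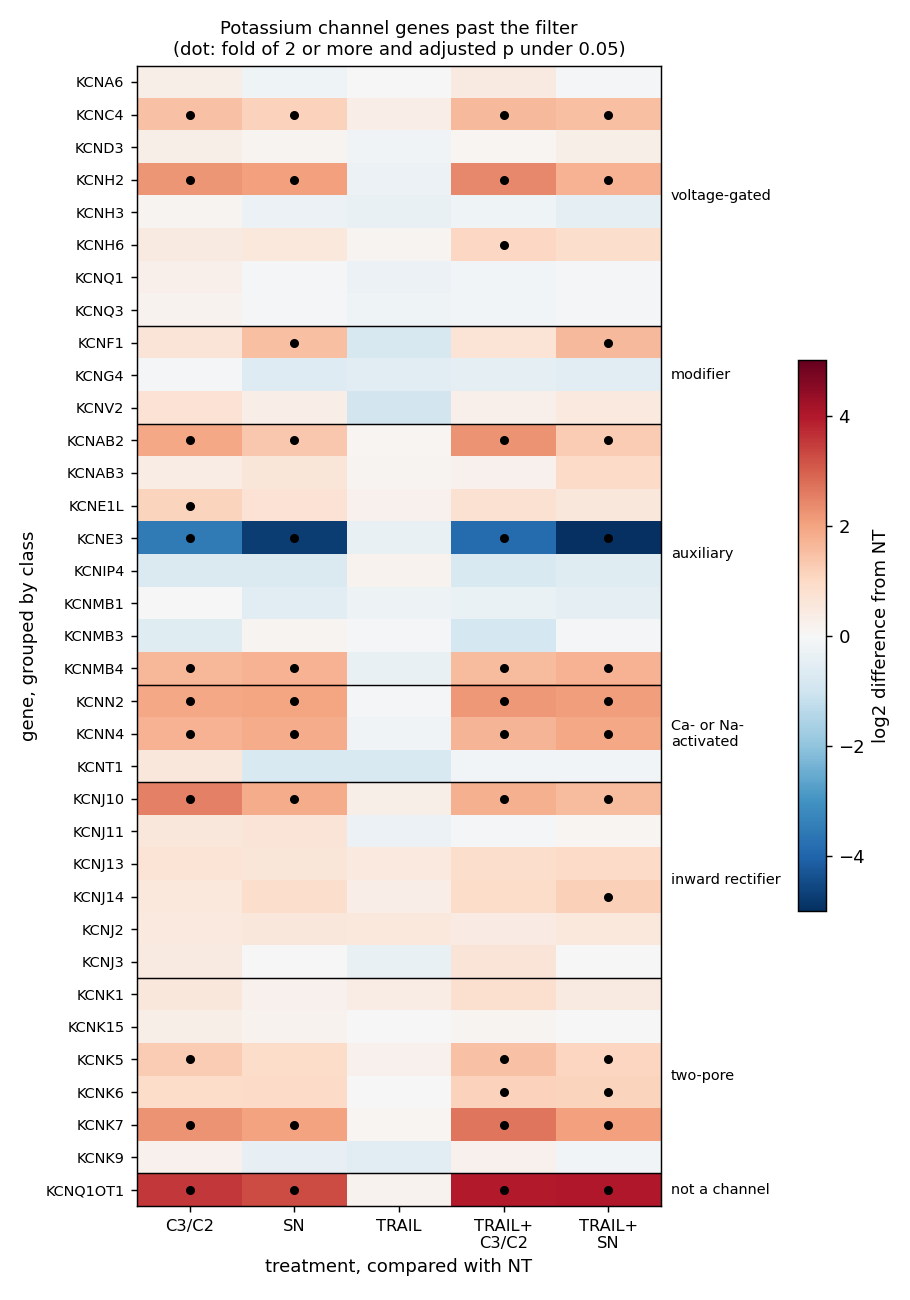
Log2 difference from NT (colour scale, -5 to 5) of 35 of the 37 potassium channel genes past the filter (rows, grouped by class) in each of the 5 treatments (columns), with a dot where the fold was 2 or more and the adjusted p under 0.05. KCNE3 is the darkest fall and KCNQ1OT1 the darkest rise. KCNJ10 has dots in 3 columns where neither group was well above background.

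Among the voltage-gated channels, KCNH2 and KCNC4 rose in all 4 groups given C3/C2 or SN. KCNH2 encodes hERG, a channel that repolarizes heart muscle and occurs in many tumor lines. The KCNH2 level was -2.58, -2.69, -3.13 and -2.72 in NT, -0.41, -0.64, -0.54 and -0.70 with C3/C2, and -0.48, -0.70, -0.80 and -0.94 with SN. No treated array of these groups overlapped NT. The log2 difference was 2.21 ± 0.13 with C3/C2 (adjusted p = 5.59e-12) and 2.05 ± 0.13 with SN, and in the co-treatments 2.40 and 1.76. A second KCNH2 probe also rose in these groups (2.91, 1.84, 1.94 and 1.69), and it fell with TRAIL alone by 1.10 on the log2 scale where the first gave -0.29. On slide 4, KCNH2 was lower in TRAIL+SN than in TRAIL+C3/C2 by less than a fold of 2 (-0.65 ± 0.13, adjusted p = 0.000647). The second probe gave -0.26 ± 0.14 there (adjusted p = 0.154).

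KCNC4 encodes a fast-activating, fast-closing channel of the Shaw type. It had a level of -4.51 to -4.27 in NT, -2.94 to -2.79 with C3/C2 and -3.28 to -3.11 with SN, without overlap. Its log2 difference was 1.48 ± 0.08 with C3/C2 and 1.16 ± 0.08 with SN, which became 0.82 and 0.62 after the other background correction. In the co-treatments it was 1.62 and 1.50, which became 0.93 and 0.99 with spike-in scaling, so each of the 4 KCNC4 calls was lost under one of these settings. KCNH6 was called with TRAIL+C3/C2 alone, at 1.03 ± 0.25, and that call was lost without NT replicate 1 (0.95), NT replicate 2 (0.94), or TRAIL+C3/C2 replicate 3 (0.86) or 4 (1.00, just under the threshold). It was also lost with the array median (0.68), quantile normalization (0.69), spike-in probes (0.34) and the other background correction (0.81).

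Of the auxiliary subunits, KCNAB2 and KCNMB4 rose in all 4 groups while KCNE3 fell. KCNMB4 encodes a beta subunit of the large-conductance calcium-activated channel, whose own gene KCNMA1 was not measured above background. The KCNMB4 level was -0.15, -0.05, -0.18 and -0.25 in NT, 1.39, 1.41, 1.60 and 1.60 with C3/C2, and 1.68, 1.67, 1.53 and 1.41 with SN. TRAIL alone, at -0.55, -0.56, -0.51 and -0.52, lay below NT without reaching a fold of 2 (-0.38 ± 0.07, adjusted p = 0.000178). The rise was 3.16-fold with C3/C2 (log2 difference 1.66 ± 0.07, adjusted p = 7.07e-15) and 3.32-fold with SN. On slide 3, SN exceeded TRAIL 4.31-fold. With TRAIL+C3/C2 the KCNMB4 difference was 1.59, which became 0.90 and was no longer called with spike-in scaling.

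KCNAB2 encodes a cytoplasmic beta subunit of Shaker-type channels. Its level was -3.65, -3.89, -4.42 and -4.05 in NT, -2.21 to -1.92 with C3/C2, and -2.43, -2.60, -2.79 and -2.72 with SN. The log2 difference was 1.94 ± 0.14 with C3/C2, 1.37 ± 0.14 with SN, and 2.23 and 1.27 in the co-treatments. The KCNAB2 calls with SN and TRAIL+SN were lost after the other background correction (0.80 and 0.96) and with the mean of its probes (0.81 and 0.76), and that with TRAIL+SN also with spike-in scaling (0.76). A second KCNAB2 probe rose with C3/C2 (1.58) and TRAIL+C3/C2 (1.47) but gave 0.25 with SN and 0.26 with TRAIL+SN, neither of which was called. On that probe SN was lower than C3/C2 by a log2 difference of -1.34 ± 0.20 and TRAIL+SN lower than TRAIL+C3/C2 by -1.21 ± 0.20 (adjusted p = 8.13e-05), and on the first probe these differences were -0.57 and -0.96. KCNE1L, named KCNE5 in RefSeq and a relative of KCNE3, rose with C3/C2 alone among the calls, at 1.11 ± 0.17, and this became 0.97 without C3/C2 replicate 4, 0.81 with the array median, 0.94 with spike-in probes and 0.97 after the other background correction. The other auxiliary genes past the filter, KCNAB3, KCNIP4, KCNMB1 and KCNMB3, were called in no group, with differences from NT between -0.87 and 0.96.

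Among calcium- or sodium-activated channels, KCNN2, a small-conductance channel, rose beside KCNN4. The KCNN2 level was -3.89, -4.44, -4.86 and -4.23 in NT, -2.11, -2.53, -2.50 and -2.60 with C3/C2, and -2.45, -2.30, -2.38 and -2.33 with SN. The groups did not overlap. The log2 difference was 1.92 ± 0.20 with C3/C2 (adjusted p = 4.11e-08) and 1.99 ± 0.20 with SN, and in the co-treatments 2.17 and 2.10.

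KCNK7 had the largest measured rise among channels proper with TRAIL+C3/C2. It belongs to the two-pore class, and its protein has not been shown to carry current on its own. The KCNK7 level was -4.09, -4.14, -4.02 and -3.76 in NT, -1.80, -1.87, -1.83 and -1.54 with C3/C2, and -2.01, -2.03, -2.07 and -1.92 with SN. With TRAIL+C3/C2 it was -0.82, -1.73, -1.42 and -1.30. All of these arrays lay above NT, and replicate 1 of TRAIL+C3/C2 was the highest of all. The log2 difference was 2.24 ± 0.13 with C3/C2 (adjusted p = 2.61e-12) and 2.00 ± 0.13 with SN. With TRAIL added, the differences from NT were 2.68 and 2.05. KCNK6 of the same class was called in the co-treatments (1.14 and 1.12) and stood at 0.91 with C3/C2 and 0.95 with SN. Both KCNK6 calls were lost with scaling to the array median (0.79 and 0.92) and to spike-in probes (0.45 and 0.61).

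KCNQ1OT1, the opposite-strand RNA and not a channel, rose most. Its level was -1.40 to -0.86 in NT, 1.99, 2.90, 2.36 and 2.38 with C3/C2, and 2.05, 1.78, 2.09 and 2.58 with SN. The rise was 11.7-fold with C3/C2 (log2 difference 3.55 ± 0.25, adjusted p = 5.69e-11) and 9.62-fold with SN. In the co-treatments it was 15.7-fold and 16.0-fold. The probe lies at chr11:2661803-2661862 on the minus strand of hg19, while KCNQ1 is read from the plus strand and, as given above, did not move with it.

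A single gene was well above background after a treatment and on no NT array. KCNJ10, an inward rectifier best known from glia and from epithelia of kidney and stomach, passed on all 4 C3/C2 arrays and on none of the other 20. That is 1 of 37 genes, or 2.70%, where 2.81% of all genes had the pattern with some treatment. Its level was -7.56, -7.80, -7.65 and -7.55 in NT, where it had no more than a bound, and -4.99, -5.32, -4.99 and -5.17 with C3/C2. KCNJ10 passed the filter through the C3/C2 arrays alone, so its difference from NT is a description with no test. It was at least 1.50-fold higher with C3/C2, and at least 1.17-fold higher after the other background correction, in which the difference no longer reached a fold of 2 (0.60). A bound sets the C3/C2 mean over its 4 arrays against the dimmest signal well above background on each NT array.

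The reverse pattern, well above background on all 4 NT arrays and on no array of a treatment, was seen for 3 of 37 genes (8.11%), where 3.17% of all genes had it. KCNF1 and KCNV2, modifier subunits, were well above background on no TRAIL array, and KCNJ11, the pore of the ATP-sensitive channel, on no TRAIL+C3/C2 array and on 1 TRAIL array. KCNF1 was at least 1.63-fold lower with TRAIL and KCNV2 at least 1.08-fold lower, and neither difference was called. Neither bound reached 1 after the other background correction, and the KCNJ11 bound was below 1 in the main setting. The levels of all 3 in TRAIL overlapped those in NT, and the TRAIL arrays include the lowest share of probes well above background, 49.8%; the part of this in the result was not tested.

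KCNF1 also rose with SN and not with C3/C2 among the calls. Its level was -4.07, -4.16, -5.01 and -4.57 in NT, -2.59, -2.65, -3.02 and -3.56 with SN, and -2.75, -2.67, -3.22 and -2.68 with TRAIL+SN. With C3/C2 it was -3.89, -3.86, -4.62 and -2.88, which overlapped NT. The log2 difference was 1.50 ± 0.31 with SN (adjusted p = 0.000199) and 1.62 ± 0.31 with TRAIL+SN, against 0.64 and 0.67 with C3/C2 and TRAIL+C3/C2. The call with SN was lost after the other background correction (0.81). The difference between SN and C3/C2 was 0.86 (95% interval 0.22 to 1.50) and that between the co-treatments 0.95 (0.31 to 1.59), and neither was called. On slide 3, KCNF1 was at least 4.61-fold higher with SN than with TRAIL (adjusted p of the fitted difference 9.96e-07), and at least 1.62-fold after the other background correction.

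**Figure D3:**
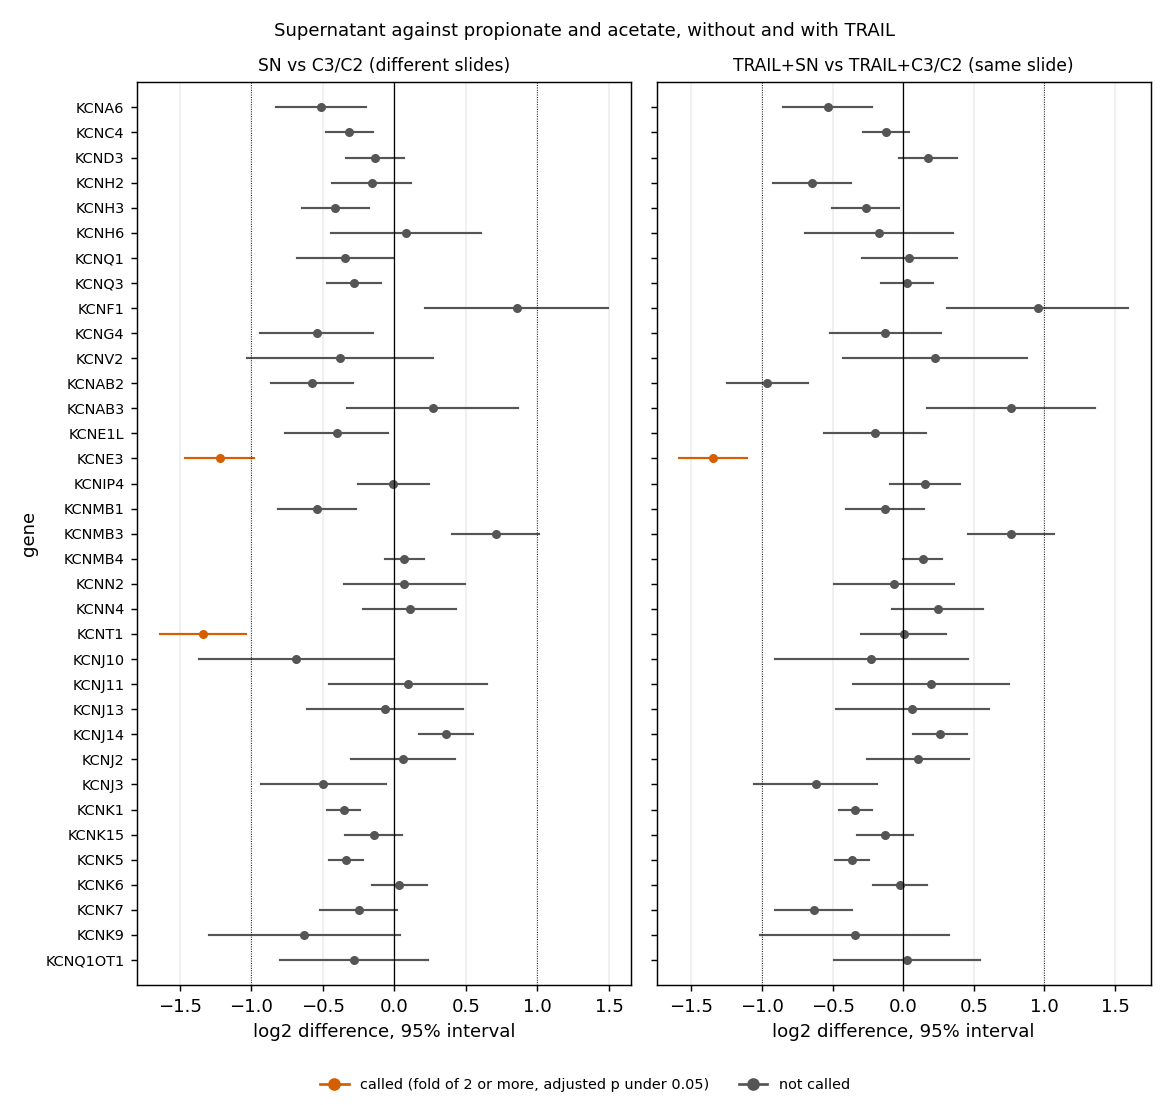
Log2 difference (x axis, point with 95% interval) of each of 35 of the 37 genes (y axis) between SN and C3/C2, on different slides, and between TRAIL+SN and TRAIL+C3/C2, on the same slide. Dotted lines mark a fold of 2. KCNE3 is called in both panels, at -1.22 and -1.34, and KCNT1 in the first panel and not the second, at -1.34.

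KCNT1, a channel opened by sodium, was called lower with SN than with C3/C2 but not between the co-treatments. Its lowest levels were those of slide 3. The levels come from a probe that matched no RefSeq symbol. The other KCNT1 probe, which did match, was well above background on no array. The KCNT1 level was -0.86, -0.51, -0.81 and -0.64 in NT and -0.44, 0.18, -0.27 and -0.05 with C3/C2, on slides 1 and 2. On slide 3 it was -1.31, -1.67, -1.69 and -1.26 with SN and -1.49, -1.71, -1.49 and -1.14 with TRAIL. On slide 4 it was -0.79, -0.69, -0.81 and -1.11 with TRAIL+C3/C2 and -0.85, -0.60, -0.96 and -0.98 with TRAIL+SN. All arrays of slide 3 lay below those of the other slides, while the groups on slide 3, and those on slide 4, overlapped each other. On slides 1 and 2, by contrast, the C3/C2 arrays lay above all NT arrays.

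The SN arrays of KCNT1 lay below those of C3/C2 (log2 difference -1.34 ± 0.14, adjusted p = 2.42e-07). Against NT the differences were 0.56 with C3/C2, -0.78 with SN and -0.75 with TRAIL, none of which was called. On their shared slide, SN and TRAIL differed by -0.03 (95% interval -0.33 to 0.27). Slide and treatment cannot be told apart in the difference between SN and C3/C2.

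**Figure D4:**
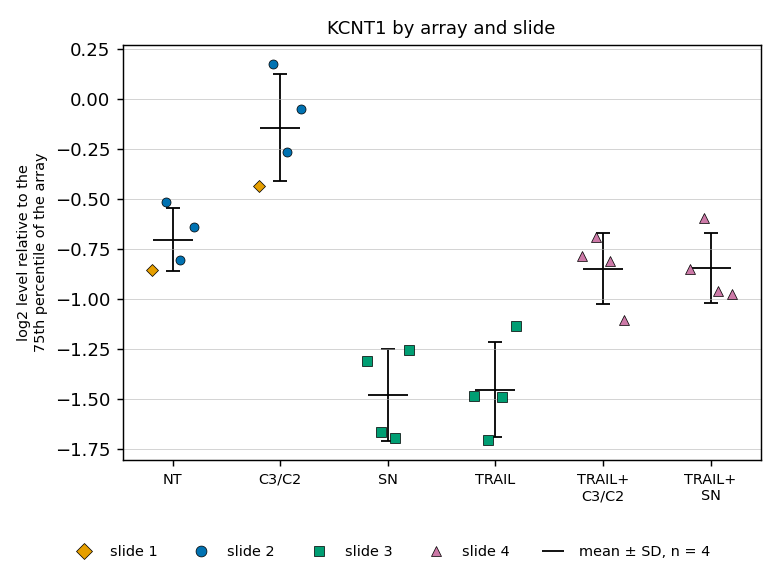
Log2 level of KCNT1 on each array (y axis, relative to that array's 75th percentile) by group (x axis), with the slide as colour and shape and bars for mean ± SD of 4 arrays. The arrays of slide 3, in SN and TRAIL, are the lowest, between -1.71 and -1.14.

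The interaction of TRAIL with C3/C2 was called for 0 of the 37 genes by limma, with 1 at a fold of 2 and an unadjusted p under 0.05 (0.493% of all genes were called higher and 0.164% lower). The interaction of TRAIL with SN was called for 2 (2.76% of all genes were called higher and 0.333% lower), among them KCNT1 at 1.39 ± 0.20, whose SN and TRAIL arrays were low together on slide 3. KCNJ14, an inward rectifier, was called with TRAIL+SN alone (1.18 ± 0.09) beside 0.87 with SN and 0.92 with TRAIL+C3/C2. That call was lost with scaling to the array median (0.99) and to spike-in probes (0.67).

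The transport proteins that work beside these channels were called higher about as often as all genes in most groups. Of 35 names on a list of epithelial ion transport, 24 were tested, and 3 rose with C3/C2, 4 with SN, 0 with TRAIL alone and, in the co-treatments, 3 with C3/C2 and 6 with SN, while 0 were called lower. The shares called higher were 12.5%, 16.7%, 0%, 12.5% and 25%, against 13.4%, 14.2%, 0.749%, 16.3% and 16.1% of all genes, and the shares of all genes called lower were 6.17%, 9.74%, 2.18%, 7.93% and 10.1%. In the same order the median log2 difference of the list was 0.43, 0.50, 0.03, 0.52 and 0.51. AQP3, a water and glycerol channel, rose by 1.87 and 1.90 on the log2 scale with C3/C2 and SN. CFTR, the chloride channel that KCNE3 serves, fell by less than a fold of 2 in the groups where KCNE3 fell. Its log2 difference was -0.31 with C3/C2 (adjusted p = 0.00287), -0.70 with SN (adjusted p = 1.8e-07), and -0.33 and -0.75 in the co-treatments (adjusted p = 0.0015 and 6.8e-08). SLC12A2, the Na-K-2Cl cotransporter, was at -0.20 with C3/C2 (adjusted p = 0.0119) and -0.39 with SN (adjusted p = 1.9e-05). Without a minimum fold, 15, 17, 6, 16 and 15 of the 24 genes were higher at an adjusted p under 0.05, and 5, 3, 2, 2 and 3 lower. At that threshold 35.2%, 35.1%, 20.3%, 39.9% and 37.4% of all genes were higher. The shares of all genes lower were 27.7%, 34.2%, 13.1%, 29.5% and 32.7%. Of 30 other partners and regulators of potassium channels, 22 were tested. At a fold of 2, 5, 3, 0, 3 and 3 rose (22.7%, 13.6%, 0%, 13.6% and 13.6%) while 0, 1, 0, 1 and 1 fell. The shares of all genes called at a fold of 2, given first, apply here too. Their median was 0.15, 0.34, -0.09, 0.25 and 0.26. The medians of both lists stand beside the values over all genes given above. HCN3, of the pacemaker channel family, rose by 2.07 and 1.95 with C3/C2 and SN, the kinase gene SGK1 by 1.60 and 1.24, and SGK3 fell with SN by 1.01.

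All 10 markers of colon epithelium were well above background on all 24 arrays. Their summed level was 767 to 850 times the 75th percentile in NT, 721 to 803 with C3/C2 and 749 to 864 with SN. It was 1014 to 1123 with TRAIL, 1041 to 1065 with TRAIL+C3/C2 and 996 to 1027 with TRAIL+SN. Of the 10, 3 were called higher with SN, 1 with TRAIL+C3/C2, 3 with TRAIL+SN and 0 with C3/C2 or TRAIL (shares of all genes below). In each treatment 0 were called lower. Of 21 markers of leukocytes, fibroblasts, endothelium, neurons and muscle, 12 were tested and 5 were well above background on no array, among them COL1A2, COL3A1 and DCN of fibroblasts. Their summed level was 3.44 to 4.31 in NT and 3.44 to 4.17 with TRAIL, and 10.5 to 11.0 with C3/C2, 10.7 to 14.4 with SN, 10.3 to 12.2 with TRAIL+C3/C2 and 10.9 to 15.3 with TRAIL+SN. It thus moved with the same treatments as the channel genes, and its part in the result was not tested. Of the 12 tested, 4 were called higher with C3/C2 (among them COL1A1, TUBB3 and PECAM1) and 0 lower. The counts were 5 and 1 with SN, 1 and 0 with TRAIL, 4 and 1 with TRAIL+C3/C2, and 5 and 1 with TRAIL+SN. Of all genes, 13.4%, 14.2%, 0.749%, 16.3% and 16.1% were called higher and 6.17%, 9.74%, 2.18%, 7.93% and 10.1% lower.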

How the data were processed

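HT29 cells were treated for 6 h in 6 groups, and each of 24 RNA samples was labelled with Cy3 and hybridised to 1 Agilent whole human genome array. The authors extracted spots with Agilent Feature Extraction 10.7.3.1, which, per the file headers, subtracts background and spatial trend. The intensity they deposited had no scaling from array to array. A second, normalized intensity file was deposited by the authors, of which 99.7% of values lay within 0.01 log2 of the same intensity divided by its array median, and its 24 flag columns were not used. For their tests they name Rosetta Resolver.

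Here control and outlier spots (190 to 315 of 58717 spots per array) were left out, replicate spots averaged, log2 taken and the 75th percentile of the array subtracted. Probes well above background on all 4 arrays of a group were kept. Group means were fitted with limma 3.58.1 in R 4.3.3 (statmod 1.5.0; the data.table package, version 1.17.8), 18 residual degrees of freedom, with Benjamini-Hochberg adjustment over 20700 genes. Tables and plots used Python 3.11.15 with pandas 2.3.3, numpy 2.4.6, scipy 1.17.1 and matplotlib 3.10.9. Checked on simulated data for SN against NT over 20700 genes with 200 changed, 94% were recovered at a log2 change of 1.5 and 99% at 2, with 1 false call. Precision was limited by the 4 arrays per group, which the study describes as 2 independent experiments in duplicate. The median standard error of log2 differences from NT was 0.108.

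Members, gene lists, naming rules and tests were chosen with earlier results of these data known. Genes named are KCNE3 and 7 others with a known role in colon epithelium, up to 5 largest rises and falls called in each treatment, genes detected in NT or a treatment alone, and genes called between treatments or for an interaction. KCNE1L, KCNH6, KCNJ14, KCNK6 and KCNC4, and single members of the partner lists, were named after their values were seen. Some genes are counted but not reported here by name or value. Promoters and symbols are RefSeq's (GRCh38.p14). RefSeq accessions matched 117 of 130 probes, 1 under another symbol. Alternatives covered scaling, background correction, the filter, probe choice, slide, replicate block, the samples fitted and leaving out each array.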

Additional observations from a re-analysis of the deposited data

Results flagged for a closer look

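An array stood apart from the other 3 of its group, by Dixon's test, for 3 genes. KCNAB2 had a level of -1.51 in TRAIL+C3/C2 replicate 1, above the others at -1.89 to -1.83. KCNF1 was at -3.22 in TRAIL+SN replicate 3, below the others at -2.75 to -2.67. KCNJ11 was at -6.28 in TRAIL+SN replicate 1, below the others at -4.94 to -4.84. Of 102 groups of a gene tested, 3 stood apart, and chance gives about 5%.

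The interaction term of TRAIL and SN for KCNT1 was 1.39 on the log2 scale (SE 0.20, limma adjusted p = 8.77e-05). Its groups lay on different slides, so slide and treatment cannot be told apart in it.

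Probes that did not pass the filter gave a signal in treated cells and in no NT array. The KCNJ18 probe was well above background on 3 of 4 SN arrays (levels over all 4 of -5.25 to -4.38) and 3 of 4 TRAIL+SN arrays (all 4 at -4.60 to -4.27), against levels of -7.76 to -7.50 in NT. KCNJ18 is near-identical to KCNJ12, so the source of this signal is uncertain. A second KCNK1 probe was well above background on 3 of 4 TRAIL+C3/C2 arrays (all 4 at -5.42 to -4.39). It was also so on 2 C3/C2 arrays, 1 TRAIL array and 1 TRAIL+SN array, and its NT levels were -7.00 to -5.82. The first KCNK1 probe was well above background on all 24 arrays, those of NT included.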

How the results depend on the processing

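No result reversed under any alternative run. Of 75 calls of named genes, 57 kept their side of the threshold with the normexp background correction, 61 with spike-in scaling, 66 with array-median scaling or the authors' table, 67 with the mean of all probes of a gene and 73 with quantile normalization. The fold bounds of KCNF1 and KCNV2 with TRAIL were 0.92 and 0.88 with normexp. The cause of these changes was not tested. Spike-in scaling put the median of all genes at -0.09 with C3/C2, 0.08 with SN, -0.22 with TRAIL, and -0.59 and -0.47 in the co-treatments with C3/C2 and SN. In the same order, array-median scaling put it at -0.22, -0.15, 0.13, -0.25 and -0.16. KCNE3 was called lower in the 4 groups given C3/C2 or SN under every alternative, with differences from -5.69 to -3.41.

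In that order, an adjusted p under 0.05 without a minimum fold called 20, 19, 5, 20 and 21 genes higher and 3, 7, 8, 6 and 6 lower, where 35.2%, 35.1%, 20.3%, 39.9% and 37.4% of all genes were called higher and 27.7%, 34.2%, 13.1%, 29.5% and 32.7% lower. It called 12 between the co-treatments, 15 between SN and C3/C2, 21 between SN and TRAIL, 4 for the interaction with SN, 23 epithelial partners and 19 other partners. Without the filter on dim probes, all 98 names were tested, so the counts are not out of 37. The 61 names so added were well above background on all 4 arrays of no group. In that setting 2 genes were called lower with C3/C2, 2 higher with TRAIL, and 25 higher and 2 lower with TRAIL+C3/C2. It called 3 between the co-treatments, 5 between SN and C3/C2, and 11 other partners. Array-median scaling and the authors' table each called 2 lower with C3/C2, 4 lower with TRAIL+C3/C2, 2 between the co-treatments and 1 for the interaction with SN. Spike-in scaling called 4 lower with TRAIL, 8 higher and 6 lower with TRAIL+C3/C2, 9 higher and 4 lower with TRAIL+SN, 2 between the co-treatments and 1 for the interaction with SN. Quantile normalization called 4 lower with TRAIL+C3/C2 and 2 between the co-treatments. Normexp called 7 higher with SN and 7 between SN and TRAIL. The mean of all probes called 1 lower with SN, 0 with TRAIL and 1 with TRAIL+SN, and 2 between the co-treatments. The interaction with C3/C2 was called for 1 gene with an unadjusted p and for 1 with only the compared groups fitted.

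Leaving out each array in turn gave 0 to 3 genes lower with TRAIL, 1 to 2 lower with TRAIL+C3/C2, 1 to 2 between the co-treatments and 1 to 4 for the interaction with SN. The 0 came without NT replicate 4, the 3 without NT replicate 3, and the 4 without TRAIL replicate 1. Of 616 gene calls so refitted, 9 fell below the threshold, among them KCNE1L, KCNH6, and KCNV2 between SN and TRAIL without TRAIL replicate 3 (0.88). Without both slide 1 arrays, a setting chosen after seeing the data, C3/C2 called 12 genes higher and 1 lower, and KCNH6 was lost (0.95).

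Same-numbered arrays of different groups deviated together with a correlation of 0.0616 to 0.475 over 60 pairs (median 0.20). For 180 pairs with other numbers it was -0.333 to 0.249 (median -0.12). Arrays of the same number thus deviated alike more than others did. Not every same-numbered pair passed 0.1, and the main fit did not take the numbers as pairs. With the replicate block, 12 genes were called higher and 1 lower with C3/C2, 11 and 2 with SN, 13 and 1 with TRAIL+C3/C2, and 14 and 2 with TRAIL+SN, and none of the 75 calls was lost.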

Other observations

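KCNJ3, an inward rectifier opened by G proteins, was singled out after its values were seen. Its level in replicates 1 and 2 was lower than in replicates 3 and 4 in all 6 groups. In NT it was -0.55, -0.46, -0.14 and -0.17. With TRAIL+C3/C2 it was -0.07, 0.15, 0.60 and 0.61. The KCNJ3 difference from NT lay between -0.37 and 0.65 in the 5 treatments and was not called.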
